A study of Mus musculus with 8 samples.

Results

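Genes of the voltage-gated potassium, sodium and calcium channels and of their close relatives were followed in AtT-20 cells. This mouse pituitary line is of the corticotrope type, a cell that secretes peptides cut from Pomc. The genes were taken by symbol, as those whose names begin with Kcn, with Cacn or with Scn and a digit. The tables held 139 such genes among 55401, and the 56 whose mean signal reached 0.1 across all 8 libraries are described here. The remaining 83 lay below that floor, and 22 of these were at 0 in every library. All cells carried ER-Pax7, a tamoxifen-activated form of the pioneer factor Pax7, which specifies the melanotropes of the pituitary. The groups were cells after 24, 48 and 72 h of tamoxifen and cells at 0 h, each with 2 libraries of RNA depleted of ribosomal RNA. The labels name no vehicle control at matched times among these libraries, so ER-Pax7 activation, tamoxifen and hours in culture cannot be told apart. The labels also do not say whether the 2 replicates of a time were separate cultures, and the spread behind each p-value may therefore be technical.

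Voltage-gated channels open or close with the membrane voltage. Sodium and calcium channels carry current into the cell and drive action potentials, potassium channels carry current out and set the resting voltage, and calcium entry triggers the release of hormone granules. In corticotropes, firing and calcium entry accompany the secretion of the hormone corticotropin. A channel is built from a pore-forming subunit and from auxiliary subunits that change its traffic and gating, and the genes are ordered here by these roles.

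Every value is the signal of a gene, the mean read coverage over its merged exons as normalized by the authors, so levels are already per length. Summed signal ran from 164236 to 178548 per library. Read depth is unknown, so no counting interval is given, and the 2 libraries of each time set the precision. As a check of the labels, Pax7 lay between 12.6 and 14.4 in all 8 libraries and Esr1, the gene of an estrogen receptor, lay between 15.4 and 18.1. Pomc lay between 499 and 679 and Tbx19, a corticotrope factor, between 16.3 and 23.2. The 8 corticotrope markers, Pomc included, summed to 682 and 672 at 0 h, 540 and 598 at 24 h, and 720 and 734 at 72 h. Of the 6 tested, limma called 0, and 4 had an unadjusted p under 0.05 at 72 h, beside 14% of all genes. Pax7, Esr1, Pomc and Tbx19 were not called at any time. Of the melanotrope genes, Pcsk2 was at 0.845 and 0.822 at 72 h, against 0.325 and 0.294 at 0 h. Oacyl was at 0.618 and 0.635 at 72 h, against 0.0129 and 0.0171 at 0 h, and Drd2 at 0 throughout. Of the 3 tested, Pax7 included, limma called 2 higher at 24, 48 and 72 h, beside 0.0951%, 0.28% and 0.996% of all genes. Of markers of other cells, summed signal over the libraries was 3.71 to 4.57 for 5 glial genes, nearly all of it Mbp, 0.912 to 1.15 for 5 muscle genes, 0.480 to 0.570 for 8 genes of other pituitary cells and 0.233 to 0.555 for 4 fibroblast genes. It was 0.0246 to 0.0695 for 2 endothelial genes. For 3 immune genes it was 0.145 and 0.171 at 72 h, against 0.0782 and 0.0780 at 0 h, and the 1 of them above the floor, Cd68, had a limma adjusted p of 0.184. Myod1 and Myog of muscle, Prl, Tshb and Fshb of other pituitary cells, Col1a2 of fibroblasts and Cd3e of immune cells were at 0 in every library. Avpr1b and Crhr1, receptors of normal corticotropes, were at 0.000317 and 0.0753 on average, below the floor.

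Of the 56 genes, 17 averaged 1 or more in signal and 39 lay between 0.1 and 1. Kcnk1 was the highest at 11.8 on average over the 8 libraries, with a lowest library of 11.3 and a highest of 12.5. Cacna2d1 followed at 10.3 on average. Kcnk1 and Cacna2d1 alone made up 17.0% and 14.9% of the summed signal of the 56 genes. By class, calcium channel auxiliary genes held 28.8% of the sum, two-pore-domain potassium channels 27.9% and voltage-gated potassium pore genes 16.9%. Of the 139 symbols, 12 of 40 voltage-gated potassium pore genes, 6 of 14 two-pore-domain genes, 6 of 10 calcium pore genes and 6 of 10 sodium pore genes were above the floor. The genes just inside it were Cacng5 at 0.134, Kcnj11 at 0.121 and Scn9a at 0.106. Those just outside it were Kcnab3os at 0.0958, Kcnk4 at 0.0939 and Kcnj1 at 0.0904.

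**Figure D1:**
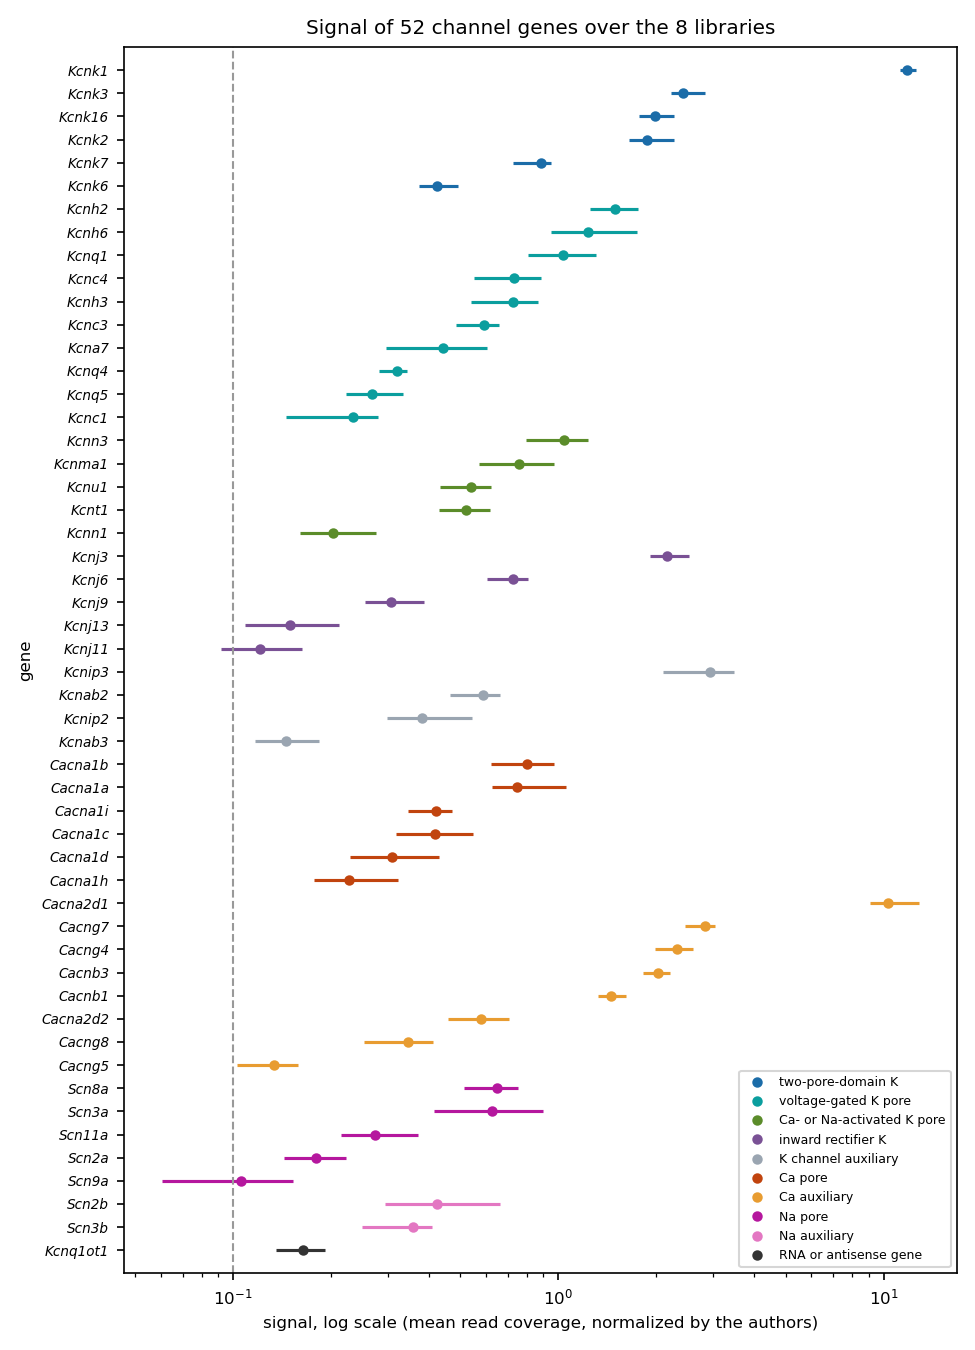
Signal of 52 of the 56 channel genes on a log axis, in classes by role. Points are means over the 8 libraries, lines run from the lowest to the highest library, and the dashed line is the floor of 0.1. Kcnk1 at 11.8 and Cacna2d1 at 10.3 stand to the right of all others.

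A gene was called where the adjusted p of a limma fit over 17871 genes, with Benjamini-Hochberg adjustment, was under 0.05. At 24 h against 0 h, 0 of the 56 channel genes were called, while 0.162% of all genes were (0.0951% higher and 0.0671% lower). At an unadjusted p under 0.05 limma gave 12 of 56 (21.4%) at 24 h, 15 (26.8%) at 48 h and 20 (35.7%) at 72 h, beside 11.4%, 9.93% and 14% of all genes. At 48 h, 4 were called, 1 higher and 3 lower, beside 0.548% of all genes (0.28% higher and 0.269% lower). At 72 h, the same 4 genes were called in the same directions, beside 1.57% of all genes (0.996% higher and 0.576% lower). These were Kcnh6, Scn2b and Cacna2d1, which were lower, and Kcnip3, which was higher. An F test over the 3 later times called 2 of 56, Kcnh6 and Scn2b, beside 0.353% of all genes. Kcnh6, Cacna2d1 and Kcnip3 are among the 17 genes averaging 1 or more, where the share of all genes called was 0.198%, 0.604% and 1.82% at 24, 48 and 72 h. Scn2b is among the 39 lower ones, where it was 0.121%, 0.484% and 1.28%. Over the whole set rises and falls came near to balance, and a signed median does not measure the size of the changes. The median log2 change of signal + 0.1 over the 56 was -0.03, 0.04 and 0.01 at 24, 48 and 72 h. Over all genes tested it was 0.01, 0.00 and 0.01. At 72 h the 56 genes ran from -0.89 for Scn2b to 0.60 for Kcnip3. In bulk RNA, fewer cells that express a gene and less RNA per cell cannot be told apart. Each count rests on 2 libraries per time, and leaving out 1 leaves a single library at that time. The calls at 48 and 72 h were then lost without any 1 library of the 2 times compared. Calls over all genes fell in those fits as well. At 48 h only Kcnh6 stayed called without either 72 h library. The F test calls were lost without any 1 library of 0, 48 or 72 h, and calls over all genes fell there too. Without 24 h replicate 1 the F test kept Kcnh6 but not Scn2b.

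Sequence windows around the starts of the called genes are shown because the series concerns DNA demethylation and methylation sits on CG dinucleotides, which are in capitals. Each runs from 250 bases before to 50 bases after a RefSeq transcript start, on build GRCm38.p6, in the direction of the gene. They were read from the reference and carry no methylation value. Kcnip3 has 3 such starts, and the outermost and the most CG-rich are printed.
Kcnh6, chr11:106007898-106008197, plus strand: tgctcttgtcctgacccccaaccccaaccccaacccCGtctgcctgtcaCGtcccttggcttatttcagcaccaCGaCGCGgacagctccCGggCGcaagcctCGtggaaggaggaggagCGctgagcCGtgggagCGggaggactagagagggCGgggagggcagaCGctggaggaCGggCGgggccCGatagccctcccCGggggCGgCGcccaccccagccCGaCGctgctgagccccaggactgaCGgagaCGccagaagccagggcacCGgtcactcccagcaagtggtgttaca
Scn2b, chr9:45117626-45117925, plus strand: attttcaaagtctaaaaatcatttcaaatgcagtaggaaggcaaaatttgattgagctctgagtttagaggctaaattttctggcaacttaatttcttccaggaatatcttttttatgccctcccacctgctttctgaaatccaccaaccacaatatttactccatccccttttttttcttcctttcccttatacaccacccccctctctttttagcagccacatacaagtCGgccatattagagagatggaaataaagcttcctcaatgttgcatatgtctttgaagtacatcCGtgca
Cacna2d1, chr5:15934441-15934740, plus strand: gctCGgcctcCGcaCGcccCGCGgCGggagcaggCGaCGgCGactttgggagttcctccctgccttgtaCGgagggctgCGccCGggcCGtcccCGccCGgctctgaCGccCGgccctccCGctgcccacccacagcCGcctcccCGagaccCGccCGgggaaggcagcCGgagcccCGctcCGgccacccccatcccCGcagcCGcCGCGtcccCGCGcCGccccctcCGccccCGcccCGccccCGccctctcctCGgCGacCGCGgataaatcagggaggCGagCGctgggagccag
Kcnip3 outermost start, chr2:127522045-127522344, minus strand: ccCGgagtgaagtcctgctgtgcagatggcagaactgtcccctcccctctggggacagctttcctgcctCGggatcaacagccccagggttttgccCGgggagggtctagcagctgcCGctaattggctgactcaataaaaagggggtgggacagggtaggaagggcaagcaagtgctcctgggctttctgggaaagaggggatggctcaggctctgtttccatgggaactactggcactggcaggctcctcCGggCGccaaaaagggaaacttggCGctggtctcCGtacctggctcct
Kcnip3 most CG-rich start, chr2:127482450-127482749, minus strand: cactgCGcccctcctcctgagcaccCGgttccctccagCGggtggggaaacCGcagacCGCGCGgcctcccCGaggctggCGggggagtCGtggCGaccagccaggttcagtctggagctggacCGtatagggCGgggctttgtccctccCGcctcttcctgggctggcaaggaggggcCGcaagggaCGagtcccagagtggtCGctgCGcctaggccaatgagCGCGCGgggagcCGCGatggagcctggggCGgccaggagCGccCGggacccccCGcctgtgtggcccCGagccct
The 4 genes differ widely in CG content. Cacna2d1 has 42 CG sites in 300 bases, Kcnh6 has 24 and Scn2b has 2. The windows of Kcnip3 have 8 and 28, and its remaining start has 4. Among 55 windows of the 37 channel genes with an entry the median was 10, and over all 32851 mouse windows it was 7.

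Kcnh6 encodes a voltage-gated potassium pore of the ether-a-go-go-related (ERG) family, whose currents act near the resting voltage. The gene lies at chr11:106008124-106034549 on the plus strand and shares no exonic base with another annotated gene. Its signal was 1.75 and 1.72 at 0 h, 1.17 and 1.29 at 24 h, 0.955 and 0.950 at 48 h, and 1.01 and 1.02 at 72 h. All 6 later libraries lay below both 0 h libraries, and the 48 and 72 h libraries lay below both at 24 h. Kcnh6 was at 0.583 times its 0 h mean at 72 h, a log2 change of signal + 0.1 of -0.72 (SE 0.08, n = 2 against 2, limma adjusted p = 0.00803). At 48 h the change was -0.80 with an adjusted p of 0.0107 by limma, and at 24 h it was -0.47 with an adjusted p of 0.104. With 1 library left out, the change ran from -0.73 to -0.71 at 72 h and from -0.81 to -0.79 at 48 h. Each call was lost without a library of either time compared, which leaves 1 library in a group.

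Its closest relative above the floor, Kcnh2, the ERG channel best known from the heart, was at 1.26 and 1.44 at 72 h, against 1.75 and 1.48 at 0 h. The 72 h libraries lay below both 0 h libraries, 1.44 against 1.48 at the nearest, and the change of -0.25 was not called (limma adjusted p = 0.385). Kcnh3, which shares the Kcnh symbol but is not of the ERG family, was at 0.538 and 0.772 at 72 h, against 0.675 and 0.866 at 0 h. Its groups overlapped. In mean level over the 8 libraries Kcnh2, Kcnh6 and Kcnq1 followed each other, and each neighbouring pair overlapped in range.

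Scn2b encodes the sodium channel beta-2 subunit, a single-span membrane protein that is linked to the pore and raises its number at the surface. It lies at chr9:45117782-45130070 on the plus strand. Its exons fall inside the span of Gm10684 on the opposite strand but share no exonic base with it, and Gm10684 had a mean signal of 0.078. Scn2b was at 0.663 and 0.654 at 0 h, 0.405 and 0.378 at 24 h, 0.347 and 0.334 at 48 h, and 0.293 and 0.326 at 72 h. Each later time lay below the one before it in both libraries, and no groups overlapped. At 72 h Scn2b was at 0.470 times its 0 h mean, a log2 change of signal + 0.1 of -0.89 (SE 0.10, limma adjusted p = 0.0117), the lowest of the 56 genes at that time. At 48 h the change was -0.78 (limma adjusted p = 0.0342) and at 24 h -0.63 (0.105). With 1 library left out, the change ran from -0.95 to -0.83 at 72 h and from -0.80 to -0.76 at 48 h. The 72 h call was lost without either 0 h or either 72 h library, which leaves 1 library in a group. The 48 h call was lost without either library of 0, 48 or 72 h. With no floor on low values the limma adjusted p was 0.0566 at 72 h and 0.129 at 48 h.

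Cacna2d1 encodes alpha-2-delta-1, an extracellular calcium channel subunit that brings the pore to the membrane and binds gabapentin. It lies at chr5:15934691-16374511 on the plus strand, with no exonic base in another gene. Its signal was 12.9 and 12.4 at 0 h, 9.47 and 9.59 at 24 h, 9.08 and 9.89 at 48 h, and 9.52 and 9.86 at 72 h. The 3 later times overlapped each other, and all 6 of their libraries lay below both 0 h libraries. At 72 h the mean was 9.69 ± 0.242, against 12.6 ± 0.344 at 0 h (SD, n = 2 each), a log2 change of signal + 0.1 of -0.38 (SE 0.06, limma adjusted p = 0.0345). At 48 h the change was -0.41 (limma adjusted p = 0.0474), and at 24 h it was -0.40 (0.0873). This was the least steady of the calls. With 1 library left out, which leaves 1 at that time, the change ran from -0.41 to -0.35 at 72 h and from -0.47 to -0.35 at 48 h. The 72 h call was lost without either library of 0, 48 or 72 h, and the 48 h call whichever library was left out. With no floor the limma adjusted p was 0.0832 at 72 h and 0.125 at 48 h. It was 0.0907 and 0.127 with no intensity trend, and 0.0585 at 48 h with quantile normalization. Cacna2d2, its paralog, was at 0.471 and 0.575 at 72 h, against 0.629 and 0.707 at 0 h, which was not called (-0.30, limma adjusted p = 0.333).

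Kcnip3 encodes calsenilin, also called DREAM, a calcium-binding protein that joins the Kv4 potassium pores and also binds DNA. It lies at chr2:127456498-127522094 on the minus strand, and 4.68% of its exonic bases fall in the span of another gene but none in its exons. Its signal was 2.31 and 2.10 at 0 h, 2.96 and 3.04 at 24 h, 3.08 and 3.18 at 48 h, and 3.47 and 3.29 at 72 h. Both libraries of each time lay above both of the time before. At 72 h Kcnip3 was at 1.53 times its 0 h mean, a log2 change of signal + 0.1 of 0.60 (SE 0.07, limma adjusted p = 0.0128). At 48 h the change was 0.49 (limma adjusted p = 0.0409) and at 24 h 0.43 (0.105). With 1 library left out, the change ran from 0.53 to 0.66 at 72 h and from 0.43 to 0.56 at 48 h. The 72 h call was lost without either 0 h or either 72 h library, which leaves 1 library in a group. The 48 h call was lost without either library of 0, 48 or 72 h. It was also lost with no floor (limma adjusted p = 0.117) or no intensity trend (0.0930).

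The Kv4 pore genes that calsenilin joins lay below the floor, with means of 0.0875 for Kcnd3, 0.0550 for Kcnd1 and 0.0001 for Kcnd2. Kcnip2, another of this family of calcium-binding subunits, was at 0.297 and 0.346 at 72 h, against 0.314 and 0.412 at 0 h, and its groups overlapped. The beta subunits Kcnab2 and Kcnab3 were not called either. Of the exonic bases of Kcnab3, 5.13% lie in exons of Kcnab3os on the opposite strand and 30.1% in the spans of other genes. The use of strand in the counting is not given, so reads in the shared bases cannot be told apart.

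**Figure D2:**
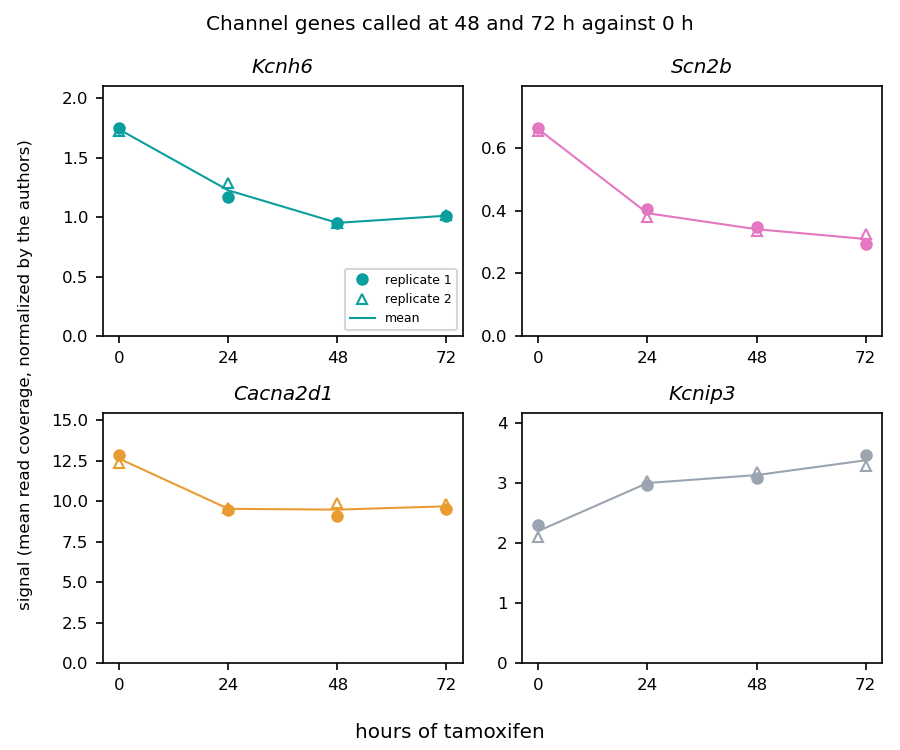
Signal of Kcnh6, Scn2b, Cacna2d1 and Kcnip3 against hours of tamoxifen, with filled circles for replicate 1, open triangles for replicate 2 and a line through the means. All later libraries lie on one side of both 0 h libraries, below them for Kcnh6, Scn2b and Cacna2d1 and above them for Kcnip3.

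No contrast between later times called a channel gene. For 48 against 24 h, 72 against 24 h and 72 against 48 h, chosen after the values were seen, limma called 0 of 56 each time, and 1, 12 and 1 had an unadjusted p under 0.05, beside 7.29%, 11.6% and 6.13% of all genes. Over all genes these contrasts called 0.0%, 0.0112% and 0.0%.

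Among the other voltage-gated potassium pore genes, none was called. Of the 12 genes of this class, Kcnh6 included, 5, 4 and 5 had an unadjusted p under 0.05 by limma at 24, 48 and 72 h. The shares of all genes were 11.4%, 9.93% and 14%. Kcnq1 was at 0.898 and 0.980 at 72 h, against 1.31 and 1.21 at 0 h, with a change of -0.39 that was not called (limma adjusted p = 0.174). The Kcnq1 gene overlaps the long RNA Kcnq1ot1 on the opposite strand, which had a mean of 0.164 and was not called. Of the fast Kv3 pores, Kcnc4 was at 0.885 and 0.729 at 72 h, against 0.593 and 0.550 at 0 h (0.43, limma adjusted p = 0.248). Kcnc1 was at 0.245 and 0.260 at 72 h, against 0.146 and 0.181 at 0 h (0.42, limma adjusted p = 0.183). All 6 later libraries lay above both 0 h libraries for Kcnc4 and for Kcnc1.

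Two-pore-domain channels carry the leak current of the resting cell. Of these 6 genes, limma called 0 at any time, and 0, 1 and 2 had an unadjusted p under 0.05 at 24, 48 and 72 h. Over all genes it was 11.4%, 9.93% and 14%. Kcnk1 was at 12.2 and 11.3 at 72 h, against 12.5 and 12.0 at 0 h, with overlapping groups (-0.07, limma adjusted p = 0.664). Of its exonic bases, 8.0% lie in exons of other genes and 53.4% in their spans, chiefly Gm45875 on the opposite strand at a mean of 4.47, so its level may hold reads of that gene. Kcnk3, the acid-sensitive channel TASK-1, was at 2.72 and 2.83 at 72 h, against 2.28 and 2.22 at 0 h, and the change of 0.29 missed the threshold (limma adjusted p = 0.0814). Kcnk16 was at 1.77 and 1.80 at 72 h, against 2.26 and 2.18 at 0 h, a change of -0.30 (limma adjusted p = 0.0855). Kcnk2, the stretch-sensitive TREK-1, was at 1.86 and 1.97 at 72 h, against 1.86 and 1.65 at 0 h (0.12, limma adjusted p = 0.722). In level Kcnk1 stood apart from the rest of its class, and Kcnk3, Kcnk16 and Kcnk2 overlapped as neighbours.

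Inward rectifiers pass current more easily into the cell than out of it. Kcnj3, a subunit of the G protein-gated channel, was the highest at 2.29 and 2.52 at 72 h, against 2.07 and 1.97 at 0 h (0.24, limma adjusted p = 0.251). Its usual partners Kcnj6 and Kcnj9 were at 0.727 and 0.307 on average over the 8 libraries and were not called. Kcnj11, the pore of the ATP-sensitive channel, was just above the floor. Of the exonic bases of Kcnj13, 49.1% lie in exons of Gigyf2, so its level is uncertain. Among potassium channels opened by calcium or sodium, Kcnn3 of the small-conductance type was at 1.21 and 1.23 at 72 h, against 0.931 and 0.948 at 0 h (0.35, limma adjusted p = 0.272). Kcnma1, the large-conductance BK pore, was at 0.823 and 0.967 at 72 h, against 0.703 and 0.687 at 0 h (0.32, limma adjusted p = 0.464). Kcnu1 and Kcnt1 were at 0.539 and 0.521 on average. Kcnu1 was placed in this class by its symbol, and opening of its channel by calcium or sodium is not implied. Limma called none of the 5 genes of this class, of which 1 had an unadjusted p under 0.05 at 72 h, beside 14% of all genes.

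Calcium pore genes were low, and limma called 0 of 6, of which 2 had an unadjusted p under 0.05 at each time. The shares of all genes at 24, 48 and 72 h were 11.4%, 9.93% and 14%. Cacna1b, the N-type pore, was the highest at 0.800 on average and overlapped between 72 h and 0 h. Cacna1a, the P/Q-type pore that serves release at many synapses, was at 0.916 and 1.05 at 0 h, 0.657 and 0.712 at 24 h, 0.691 and 0.624 at 48 h, and 0.648 and 0.653 at 72 h. All 6 later libraries lay below both 0 h libraries, and the change at 72 h of -0.53 (SE 0.10) had a limma adjusted p of 0.0571. The L-type pores Cacna1c and Cacna1d were at 0.419 and 0.308 on average. Cacna1c was at 0.387 and 0.391 at 72 h, against 0.465 and 0.545 at 0 h (-0.30, limma adjusted p = 0.522). The T-type pores went opposite ways in value without a call: Cacna1h was at 0.187 and 0.244 at 72 h, against 0.322 and 0.272 at 0 h, and Cacna1i at 0.458 and 0.471 at 72 h, against 0.345 and 0.390 at 0 h. Cacna1g, Cacna1f, Cacna1e and Cacna1s lay below the floor, with means from 0.0041 to 0.0537.

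Among the other calcium auxiliary genes, the beta subunits Cacnb3 and Cacnb1 were at 2.02 and 1.45 on average. Cacnb3 was at 1.82 and 2.07 at 72 h, against 2.21 and 2.17 at 0 h (-0.17, limma adjusted p = 0.389). Cacnb1 was at 1.61 and 1.57 at 72 h, against 1.32 and 1.43 at 0 h (0.20, limma adjusted p = 0.268). Cacng7, Cacng4, Cacng8 and Cacng5 are gamma subunits by name, and their proteins are better known as regulators of AMPA-type glutamate receptors. Cacng7 was at 2.77 and 2.96 at 72 h, against 2.85 and 2.80 at 0 h, with overlapping groups. Cacng4 was at 1.99 and 2.23 at 72 h, against 2.59 and 2.49 at 0 h (-0.26, limma adjusted p = 0.172).

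**Figure D3:**
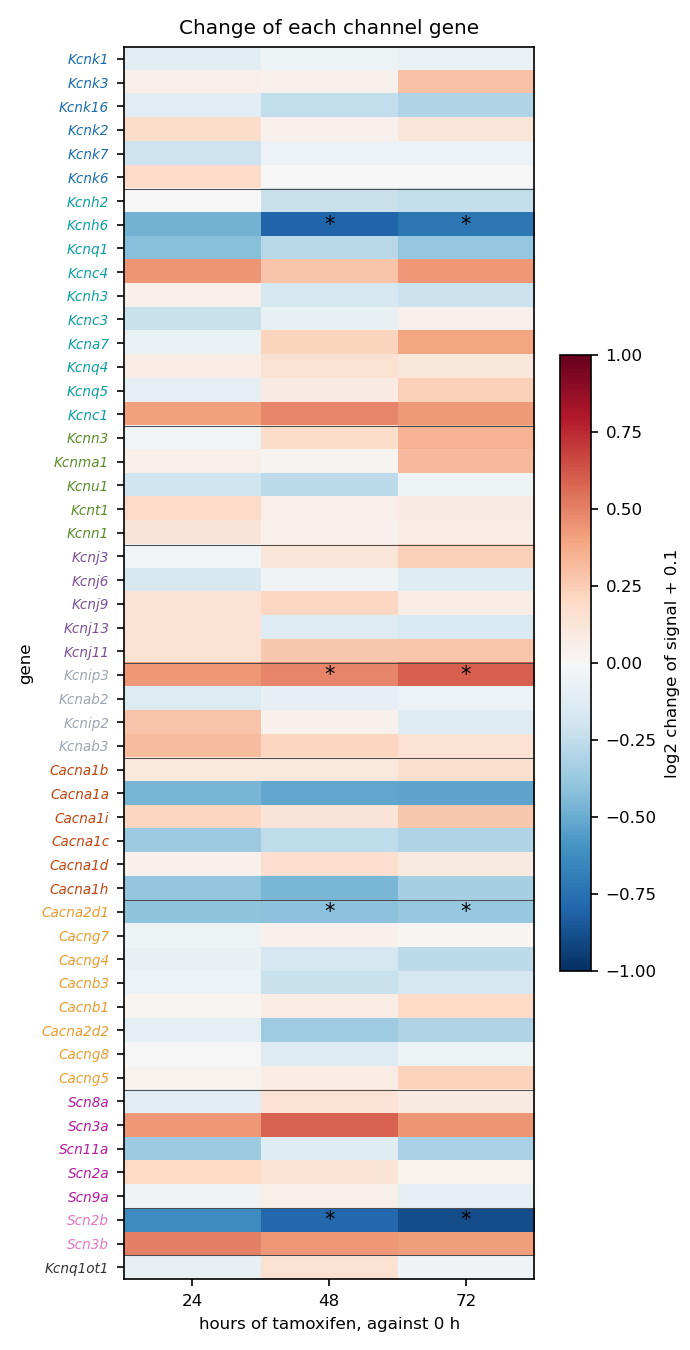
Log2 change of signal + 0.1 for 52 of the 56 channel genes at 24, 48 and 72 h against 0 h, in classes by role. Red is higher and blue lower at the later time, and an asterisk marks a limma adjusted p under 0.05. Asterisks stand at 48 and 72 h for Kcnh6, Kcnip3, Cacna2d1 and Scn2b.

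Of the sodium pore genes, limma called 0 of 6 at each time. At 24, 48 and 72 h, 1, 2 and 1 had an unadjusted p under 0.05, beside 11.4%, 9.93% and 14% of all genes. Scn8a and Scn3a, neuronal pores, were the highest at 0.650 and 0.627 on average and overlapped in range over the libraries. Scn3a was at 0.416 and 0.491 at 0 h, 0.509 and 0.808 at 24 h, 0.591 and 0.900 at 48 h, and 0.616 and 0.683 at 72 h. All later libraries lay above both 0 h libraries, but the 24 and 48 h pairs spread widely and the change at 72 h of 0.44 (SE 0.23) had a limma adjusted p of 0.450. Scn11a, Scn2a and Scn9a were at 0.274, 0.180 and 0.106 on average, and Scn4a, Scn1a, Scn7a and Scn10a lay below the floor with means from 0.0060 to 0.0463.

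Beside Scn2b, which fell, the sodium auxiliary gene Scn3b, the beta-3 subunit, was at 0.249 and 0.266 at 0 h, 0.403 and 0.410 at 24 h, 0.380 and 0.388 at 48 h, and 0.360 and 0.397 at 72 h. All 6 later libraries lay above both 0 h libraries, and the changes of 0.50, 0.44 and 0.42 had limma adjusted p-values of 0.171, 0.175 and 0.124. At 72 h Scn3b stood above Scn2b in both libraries, and at 0 h Scn2b stood above Scn3b in both. Scn4b was below the floor, at a mean of 0.0039.

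**Figure D4:**
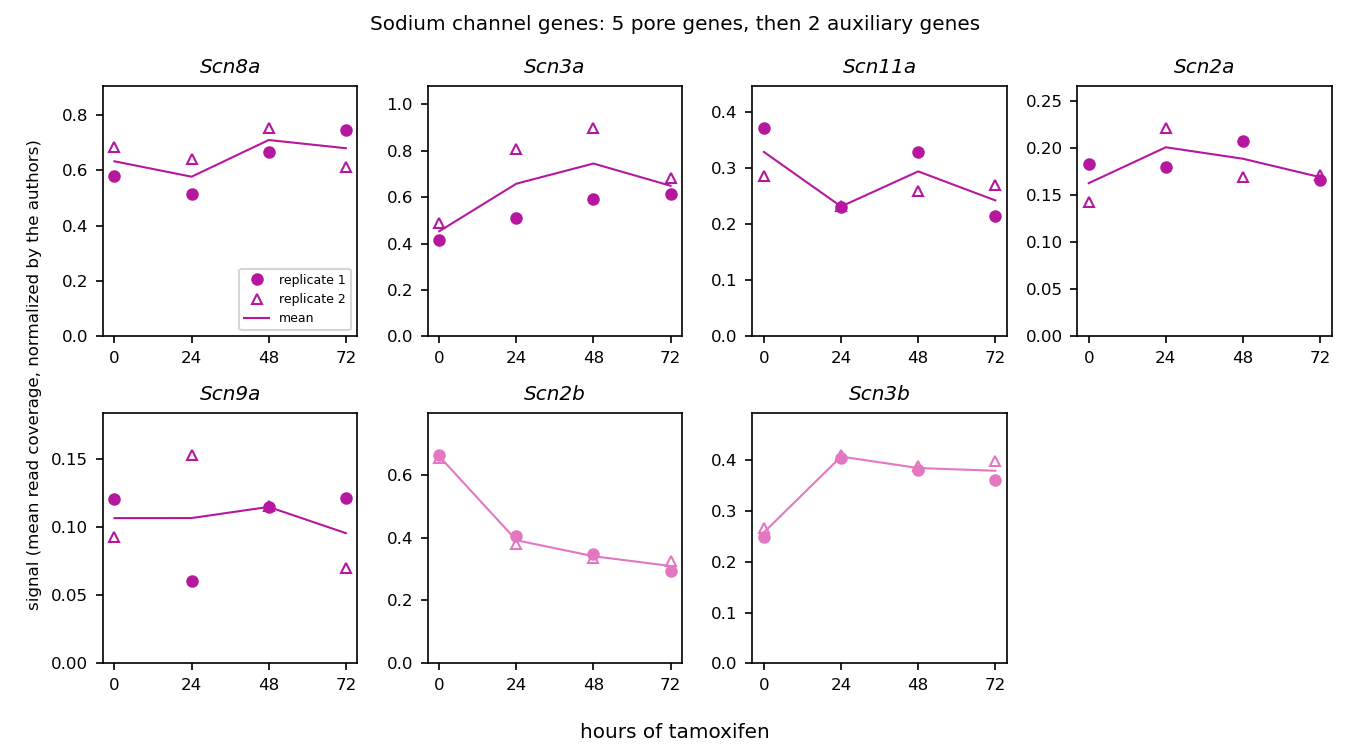
Signal of 5 sodium pore genes and 2 sodium auxiliary genes against hours of tamoxifen, with filled circles for replicate 1, open triangles for replicate 2 and a line through the means. Scn2b lies lower at each later time, at 0.293 and 0.326 at 72 h against 0.663 and 0.654 at 0 h, and Scn3b and Scn3a lie above their 0 h libraries at all later times.

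Groups that do not overlap were common in these data and are not read as calls. At 72 h against 0 h, 36 of the 56 channel genes did not overlap, 19 higher and 17 lower, while 47.6% of all genes tested did not (25.7% higher and 21.9% lower). At 48 h there were 33, 16 higher and 17 lower, beside 44.2% (22.7% and 21.5%). At 24 h there were 30, 12 higher and 18 lower, beside 40.5% (21.8% and 18.8%). At all 3 later times 9 genes lay above 0 h, beside 8.12% of all genes, and 12 lay below it, beside 6.84%. The 9 were Kcnip3, Kcnk3, Kcnc4, Scn3a, Cacna1i, Scn3b, Kcnc1, Kcnab3 and Kcnj11. Among the 12 were Cacna2d1, Cacng4, Cacnb3, Kcnk16, Kcnh6, Kcnq1, Cacna1a, Cacna2d2, Scn2b and Cacna1h. The 3 later times share the 0 h libraries.

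Summed over the 56 genes, signal was 68.5 and 70.3 at 72 h, against 73.9 and 72.3 at 0 h. The groups did not overlap. The difference of -3.72 was a net of falls and rises. Its largest parts by class were -3.48 in calcium auxiliary genes, -1.89 in voltage-gated potassium pores and 1.13 in potassium auxiliary genes. The calcium auxiliary genes summed to 18.7 and 19.7 at 72 h, against 23.0 and 22.4 at 0 h. Without Cacna2d1 the 56-gene sums were 59.0 and 60.4 at 72 h, against 61.0 and 59.9 at 0 h, and overlapped. Voltage-gated potassium pores summed to 10.9 and 11.7 at 72 h, against 13.3 and 13.1 at 0 h. Potassium auxiliary genes summed to 4.47 and 4.39 at 72 h, against 3.40 and 3.20 at 0 h, with Kcnip3 as their highest gene. Kcnip3 alone differed by 1.17, against 1.13 for the class, so the rise of the sum is that of Kcnip3. Neuron markers, which many endocrine cells also express, summed to 40.1 and 42.2 at 72 h, against 47.7 and 59.2 at 0 h. Of the 6, Map2, Tubb3, Snap25, Syt1 and Nefl were tested and limma called 0. Of these 5, 3 had an unadjusted p under 0.05 at 72 h, beside 14% of all genes. Rbfox3, the defining one, had a mean of 0.0246. The part of these markers in the channel values was not tested.

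**Figure D5:**
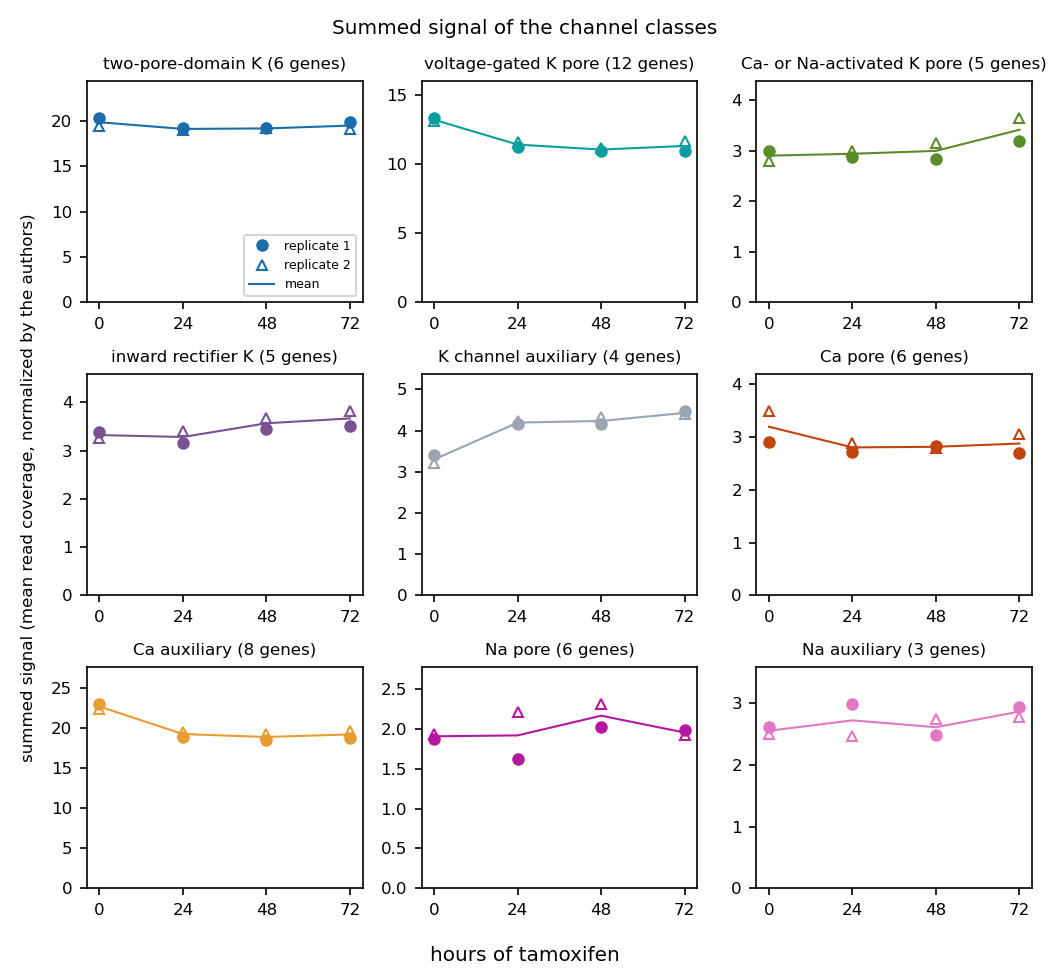
Summed signal of 9 channel classes against hours of tamoxifen, with filled circles for replicate 1, open triangles for replicate 2 and a line through the means. The calcium auxiliary sum is 18.7 and 19.7 at 72 h against 23.0 and 22.4 at 0 h. The potassium auxiliary sum is 4.47 and 4.39 against 3.40 and 3.20, of which Kcnip3 is 3.47 and 3.29 against 2.31 and 2.10.

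A list of 39 partners and regulators of these channels, outside the symbol rule, had 30 genes above the floor. By limma 0 were called at 24 h and 0 at 48 h, and 1 was called at 72 h, beside 1.57% of all genes. At an unadjusted p under 0.05 there were 6, 8 and 9 of the 30 at 24, 48 and 72 h, beside 11.4%, 9.93% and 14% of all genes. This was Gem, a small GTP-binding protein that binds calcium channel beta subunits and holds down calcium current. Gem was at 1.15 and 0.940 at 0 h, 1.15 and 1.10 at 24 h, 1.39 and 1.41 at 48 h, and 1.79 and 1.78 at 72 h, and the log2 change at 72 h was 0.72 (limma adjusted p = 0.0190). The 48 and 72 h libraries lay above both 0 h libraries. With 1 library left out, which leaves 1 at that time, the change at 72 h ran from 0.59 to 0.86. The call was lost without either library of 0, 48 or 72 h, and with no floor (limma adjusted p = 0.0785). Among the highest partners by mean were Calm2 at 52.5, Calm3 at 23.8, Hcn2 at 4.52 and Cabp1 at 4.39, which are calcium sensors apart from Hcn2, a pacemaker channel. None of these 4 was called.

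Short motifs were counted on both strands in the windows of the 37 channel genes with a RefSeq entry. The homeodomain palindrome, TAAT and ATTA with 2 free bases between them, was in 0 of 55 channel windows and in 0.390% of all 32851 windows. The E-box CANNTG was in 65.5% of channel windows and 72.3% of all, and TATAAA in 7.27% and 13.6%. TGACGTCA, the cyclic AMP response element, was in 0 channel windows and in 1.79% of all. TTCAGCACC, the left arm of the element bound by the repressor Rest, was in 1 channel window, that of Kcnh6 at bases 65 to 73, and in 0.371% of all. The right arm, GGACAGC, looked for after that window was read, stands there at bases 81 to 87. That arm alone was in 5 of 55 channel windows, among them the outermost window of Kcnip3 at bases 53 to 59, and in 6.56% of all. Windows that hold both arms, at any spacing and on either strand, were 0.0426% of all. The spacing of the arms in the Kcnh6 window was not compared with that of a full element. Rest itself had a mean signal of 0.0491, below the floor. A match describes letters only, and binding was not measured here.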

How the data were processed

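RNA was measured in 8 libraries of AtT-20 cells, 2 at each of 4 times, grouped by their labels. Although the molecule field of the labels says genomic DNA, the protocol describes RNA extraction, and the values were read as RNA. The deposited value of each gene is a signal, the mean read coverage over its merged exons, scaled by the authors; the scaling, the counter, whether strand was used and the gene annotation are each not given in the sources used here. Per the submitters' processing notes, the tools were HISAT2 2.2, SAMtools 1.12 and deepTools 3.5, with mm10, also written GRCm38, as the build. Of the 139 channel gene identifiers, 139 occur in GENCODE M21 and 135 have the same coordinates there.

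The 17871 genes whose mean signal reached 0.1 were transformed as log2(signal + 0.1), a scale that understates the change of low genes. They were fitted with limma 3.58.1 (R 4.3.3) on group alone, with an intensity trend and 4 residual degrees of freedom. Each contrast with 0 h was adjusted after Benjamini and Hochberg across all 17871 genes, with a threshold of 0.05. The plan did not foresee coverage as the unit. Its 17 alternatives were other pseudocounts and floors, scaling by a trimmed mean or by quantiles, a fit with no trend, a replicate block and leaving out each library.

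The members, lists and tests were chosen with earlier results of these data known. Genes named were those called, the 3 highest of each class, the 5 highest and 5 lowest changes at each time among means of at least 0.5, all calcium and sodium pore genes, the 3 genes on each side of the floor, Pax7, Esr1 and Pomc, and partners that were called or among the 5 highest. Others were added after their values were seen, and some that the rule names are not reported here. No batch is labelled.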

Additional observations from a re-analysis of the deposited data

How the results depend on the processing

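Depth is unknown, and 2 libraries per time limit every call. No direction of a called channel gene turned under any alternative. For the partner Gem, the log2 change at 24 h ran from -0.04 to 0.23 when single libraries were left out. At 24 h, 0 channel genes were called under every alternative. At 48 h the reported count is 4, beside 0.548% of all genes. Limma called 1 with no filter on low values (37675 genes), beside 0.0398%, and 2 with no intensity trend, beside 0.313%. It called 1 with a replicate block, beside 0.213%. From only the 4 libraries of the 2 times, chosen after seeing the data, it called 1, beside 0.476%. At 72 h, where the count is 4 beside 1.57%, it called 2 with no filter, beside 0.207%. The F test called 2, beside 0.353% of all genes. It called 0 with no filter, beside 0.0239%, and 0 with a replicate block, beside 0.151%. With a floor of 1 and a pseudocount of 1 it called 1, beside 0.344%. The cause was not tested. The other planned pseudocounts, floors and scalings gave counts within 1.5 times. Leaving out each library in turn gave 0 to 3 calls at 48 h, 0 to 5 at 72 h, 0 to 0 at 24 h and 0 to 3 by the F test. A time left with 1 library is assumed there to vary like the others.

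Same-numbered replicates deviated together only weakly, with correlations of 0.0203 to 0.152 across genes, so the numbers were not taken to pair the samples. The replicate block kept Kcnip3, Scn2b and Kcnh6 at 72 h, a count of 3, beside 1.02% of all genes. It gave Cacna2d1 a limma adjusted p of 0.0559. With no intensity trend Cacna2d1 had an adjusted p of 0.0907 at 72 h.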

Other observations

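Some genes below the floor or outside the symbol rule, chosen after their values were seen, are given as values. Kcnj1, an inward rectifier of kidney epithelium, was at 0.0691 and 0.0687 at 72 h, against 0.137 and 0.136 at 0 h. Kcnip4, a relative of Kcnip3, was at 0.0319 and 0.0752 at 72 h, against 0.135 and 0.106 at 0 h. Neither was in the fit. Dpp6, a membrane partner of the Kv4 pores, was at 0.469 and 0.409 at 0 h, 0.201 and 0.249 at 24 h, 0.223 and 0.241 at 48 h, and 0.219 and 0.243 at 72 h. Its log2 change of signal + 0.1 at 72 h was -0.70, with a limma adjusted p of 0.0567. Its paralog Dpp10 was at 1.48 in 48 h replicate 2, at 0.179 in 0 h replicate 1 and at most at 0.000259 in the other 6 libraries.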
